A study of Mustela putorius furo with 10 samples.

Results

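Heat shock proteins and their J-domain partners are the chaperones that fold, refold and transport other proteins. HSP70 proteins bind unfolded stretches while hydrolysing ATP. The J proteins of the DNAJA, DNAJB and DNAJC families bring them their substrates and start that hydrolysis, and nucleotide exchange factors, among them the HSP110 proteins, let the substrate go. Some members are made in response to heat and other stresses that unfold proteins, and others are present in every cell in the cytosol, the endoplasmic reticulum or the mitochondria.

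The genes were chosen by their RefSeq ferret symbol, as those beginning with HSPA to HSPH or with DNAJA to DNAJC. The gene table held 66 such symbols, of which 62 had at least 1 target sequence on the array and 51 passed the filter on dim probes described here. They stand among 26303 genes tested. The symbol also takes in HSPBP1, a nucleotide exchange factor of HSP70, and HSPBAP1, which binds HSPB1, although neither is a chaperone by sequence. DNAJA1, DNAJB6, DNAJC5 and HSPA14 had no matching sequence, and the stress-inducible HSP70 gene HSPA1A had no entry under that symbol, so that none of these has a value here.

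Peripheral blood mononuclear cells (PBMC) of male ferrets aged 3 months were studied, in 6 control animals kept at 22 °C and in 4 cold animals kept individually at 4 °C for 1 week. Both groups had started with 7 animals, and the sources give the difficulty of obtaining PBMC as a reason for the lower number in the cold group. RNA of each ferret, labelled with the green dye Cy3, was hybridised to its own Agilent array together with a pool of RNA from PBMC and other tissues, labelled with the red dye Cy5. A level in the text is the log2 ratio of the ferret to this pool after loess within the array. A level of 0 thus means the typical ratio for spots of like intensity on that array, and levels of different genes are not compared. A change is the mean level in cold less that in control, tested with limma. A gene is called at an unadjusted limma p under 0.01, the threshold of the methods, and the adjusted p printed beside a change is that of limma after Benjamini-Hochberg adjustment over all genes of the same fit.

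Between 50.4 and 63.5% of the Cy3 spots of an array stood well above background. In Cy5 these were 27.0 to 54.9% in control and 40.5 to 64.0% in cold, a share above that of Cy3 on cold 1 alone, and the median Cy5 intensity (44 to 152) was below the median Cy3 intensity (205 to 281) on each array. After loess the level of some lineage markers in the preparation also differed between the groups. The mean level of 5 of 8 neutrophil markers was 0.84 to 1.47 in the control ferrets but 1.64 to 2.06 in the cold ferrets, and that of 4 of 8 erythroid markers 0.18 to 1.12 in the former but -0.85 to -0.06 in the latter. Neither pair of ranges overlapped. The 10 of 12 measured T cell markers ranged from -0.03 to 0.28 in control and from -0.67 to 0.03 in cold, the 7 of 8 monocyte markers from 0.04 to 0.60 and from 0.52 to 1.20, and the 6 of 8 platelet markers from -0.03 to 1.59 and from 1.04 to 2.13. The 6 of 8 B cell markers ranged from -0.13 to 1.34 in control and from 0.38 to 0.82 in cold. These shifts depended on the scaling in size, and for some lists in sign. The median change of the neutrophil markers was 0.82 after loess and -0.01 after median centring of each array. Median centring moved all genes to a median of -0.43, and less that the neutrophil markers had 0.41. The monocyte markers had 0.60, -0.46 after median centring (-0.03 less all genes) and 0.06 in the deposited value table. The erythroid markers had -0.74, but -1.73 with Cy3 alone. The platelet markers had 0.88 after loess, 0.36 after median centring and 0.75 in the deposited value table. The T cell markers had -0.39, -1.32 and -0.84 in the same order. The platelet, T cell, B cell and erythroid medians kept their sign under each alternative of background, scaling and input. Fewer cells of a type and less RNA per cell cannot be told apart in such samples, and the part of these shifts in the values of the chaperones was not tested.

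Of the 51 chaperone genes, 7 were called, 6 lower and 1 higher in cold. The background over all 26303 genes was 8.64% called, with 3.43% called lower and 5.22% called higher, against 13.7% of the chaperones, 11.8% lower and 1.96% higher. None passed an adjusted p of 0.05 (limma with Benjamini-Hochberg adjustment over all genes), where the lowest adjusted p among the chaperones was 0.0736 and among all genes 0.0575. At an unadjusted limma p under 0.05 there were 16 (31.4%), against 24.7% of all genes. Below 0 on the scale of changes were 36 of the 51 and above it 15, and the median change was -0.09, against -0.01 over all genes. The 7 called genes were HSPA4, HSPA4L and HSPA12A of the HSP70 and HSP110 family, HSPB11, and the J protein genes DNAJB14, DNAJC27 and DNAJC6. HSPB11 is grouped with the small heat shock proteins by its symbol, and DNAJC6 was the 1 that was higher. DNAJC6 reached the 4 arrays above background that the filter asks for only with its cold arrays, so that its call is a description. Control and cold ferrets did not overlap for 4 of the 51 (7.84%), against 5.22% of all genes, namely HSPA4 and DNAJB14 below and DNAJC6 and DNAJC7 above (3.08% of all genes had all cold values above). Cy3 alone, without the reference channel and quantile normalised, called 0 of the 51 lower and 3 higher (DNAJC3, DNAJC4 and DNAJC6), against 4.36 and 5.48% of all genes (9.84% in either direction), and had the sign of the ratio for 42 of the 51. None of the 51 passed the adjusted threshold with Cy3 alone, where 2.81% of all genes did. Centring each array on its median in place of loess moved the median change of all genes to -0.43 and that of the chaperones to -0.54, which is 0.11 below all genes in place of 0.07. It called 2 chaperones lower and 1 higher (5.88%, against 4.42% of all genes), while the processed scanner intensities called 2 and 2 (7.84%, against 7.18%) and the deposited values 2 and 1 (5.88%, against 4.16%). Over all genes the share of called genes that were lower was 39.6%, and it was 81.5% after median centring and 53.8% in the deposited value table.

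**Figure D1:**
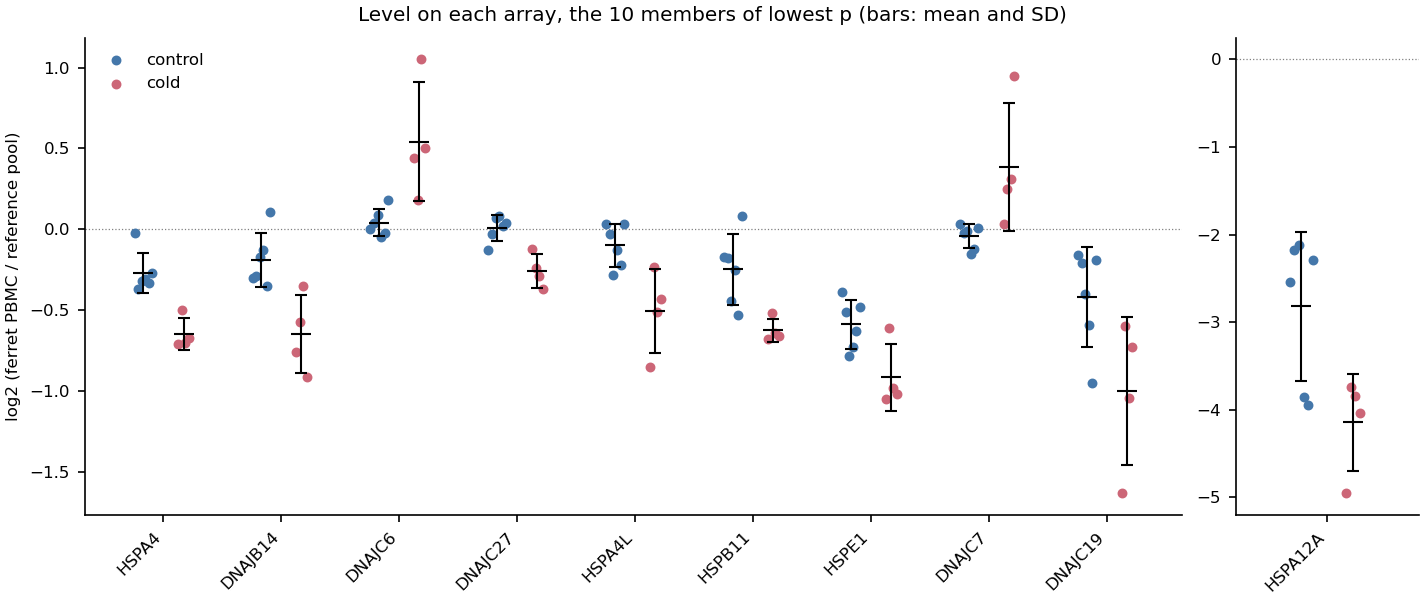
Level of the 10 chaperone genes of lowest limma p on each array, as the log2 ratio of the ferret's PBMC to the reference pool; points are ferrets (6 control, 4 cold) and bars the group mean and SD. The cold values of HSPA4 and DNAJB14 lie at or below the lowest control value and those of DNAJC6 and DNAJC7 at or above the highest, and HSPA12A has a wider scale of its own.

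The lowest p belonged to HSPA4, an HSP110-type protein that exchanges the nucleotide of HSP70. Its level in the 6 control ferrets ran from -0.37 to -0.02 with a median of -0.31, and the cold ferrets had -0.71, -0.50, -0.70 and -0.67. All 4 cold values lay below all 6 control values, as for 2.14% of all genes. Control ferrets averaged -0.27 ± 0.13 (SD, n = 6) while cold ferrets averaged -0.65 ± 0.10 (SD, n = 4), a change of -0.38 (SE 0.09, 95% confidence interval -0.57 to -0.18, adjusted p = 0.0736). An exact two-sided permutation test over the 210 splits of the arrays gave p = 0.00476, the smallest it can give. All 4 probes had a lower mean in cold, and both dyes were well above background on 100% of their spots. Cy3 alone gave -0.41 (SE 0.14, adjusted p = 0.105), also without overlap, while the change of the Cy5 channel was -0.03 (SE 0.07). The change was -0.36 among the arrays at slide position 1 and -0.36 among those at position 2. HSPA4 was called in each of the 10 fits that left out 1 array, with changes from -0.43 to -0.33. The call was kept in 8 of 14 other alternatives and lost with the processed intensities (-0.33), Cy3 alone, median centring (-1.30), the replicate block (-0.39) and within either slide position, while the deposited value table gave -0.81 with a call.

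HSPA4L encodes the nearest relative of HSPA4. Control ferrets had from -0.28 to 0.03 with a median of -0.08, and cold ferrets -0.85, -0.23, -0.51 and -0.43. The cold 2 ferret lay within the control range and the others below it. The change was -0.40 (SE 0.12, adjusted p = 0.0996), and its pair of target sequences changed by -0.45 and -0.36. With Cy3 alone it was -0.17 (SE 0.18), and the call was kept in 4 of the 10 fits without 1 array. HSPH1, the other HSP110-type gene among the 51, did not pass the test. Its cold levels of 0.00, 0.61, 0.64 and 0.12 spanned the whole control range of 0.05 to 0.52, with a change of 0.14 (SE 0.15), which was -0.64 after median centring and -0.20 in the deposited value table.

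HSPA12A, an atypical member of the HSP70 family, had a change of -1.32 (SE 0.42, adjusted p = 0.111), the farthest from 0 among the 51 after loess, but of -0.23 with the processed scanner intensities and -0.92 in the deposited value table. Control levels ran from -3.95 to -2.12 with a median of -2.42, and cold levels were -4.95, -3.74, -3.84 and -4.04. The control 4 and control 5 ferrets lay within the range of the cold ferrets and the other 4 above it. Taken alone and quantile normalised, Cy3 changed by 0.03 (SE 0.08) and Cy5 by 0.22 (SE 0.15). Of its 4 probes 2 passed the filter, and Cy3 was well above background on 60% of their spots and Cy5 on 100%. The call was kept in 2 of the 10 fits without 1 array.

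The constitutive cytosolic HSP70 is HSPA8. Its control levels ran from -0.23 to 0.22 with a median of -0.12 and its cold levels were -0.32, -0.13, -0.49 and -0.42. All 4 cold values lay below the control mean of -0.08 and 3 of them below every control ferret, but the change of -0.26 (SE 0.11, adjusted p = 0.169) did not reach the threshold of the methods. It was -0.76 in the deposited value table and -1.35 after median centring, also without a call. The mitochondrial HSP70, HSPA9, had a change of -0.19 (SE 0.10, adjusted p = 0.245). HSPA5, the HSP70 of the endoplasmic reticulum also known as BiP, was the 1 HSP70 with a positive change and an unadjusted p under 0.05. Its control levels ran from -0.49 to 0.26 with a median of -0.06, and its cold levels were 0.04, 0.43, 0.44 and 0.11. The change was 0.36 (SE 0.16, adjusted p = 0.193) and 0.37 (SE 0.15, adjusted p = 0.146) with Cy3 alone, and 0.49 at slide position 1 but 0.08 at position 2. It was -0.71 after median centring and -0.14 in the deposited value table. HSPA13, a truncated HSP70 of the microsomes, changed by -0.07 (SE 0.12) in the ratio and 0.30 (SE 0.19) in Cy3 alone. Across the 8 HSP70 and HSP110 genes, 6 changes were negative and 2 positive, with a median of -0.22. That median kept its sign under all 5 alternatives of background, scaling and input, although it was -0.68 after median centring. With Cy3 alone it was -0.01 and 4 genes lay on each side of 0. Less the median of all genes, it was -0.26 after median centring and 0.03 with Cy3 alone.

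Among the chaperonins, HSPD1 (HSP60) and HSPE1 (HSP10) form the folding chamber of the mitochondrial matrix, and in mammals their genes share a bidirectional promoter. HSPE1 levels ran from -0.78 to -0.39 in control with a median of -0.57 and were -1.05, -0.61, -0.98 and -1.02 in cold. The cold 2 ferret lay among the control ferrets and the other 3 below all of them. The change was -0.33 (SE 0.11, adjusted p = 0.124), with -0.45 and -0.20 for its pair of target sequences. HSPD1 levels ran from -1.18 to -0.63 in control with a median of -0.79 and were -1.19, -0.65, -0.86 and -0.96 in cold, which overlapped almost fully. Its change was -0.07 (SE 0.14, 95% confidence interval -0.38 to 0.24). Whether the changes of HSPE1 and HSPD1 differ from each other was not tested.

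The 4 measured genes grouped by symbol as small heat shock proteins were HSPB1, HSPB6, HSPB8 and HSPB11. HSPB11 (IFT25), a part of the intraflagellar transport complex, was the 1 called. Its control levels ran from -0.53 to 0.08 with a median of -0.22, and its cold levels lay close together at -0.68, -0.52, -0.64 and -0.66. Control 5 lay between the cold ferrets and all other control ferrets lay above them. The change was -0.37 (SE 0.11, adjusted p = 0.105) with all 9 probes lower, and -0.18 (SE 0.14) with Cy3 alone. The call was kept in 3 of the 10 fits without 1 array and in 5 of 14 other alternatives, with -0.22 in the deposited value table and -0.94 after median centring. HSPB8, which works with BAG3 in the autophagy of damaged proteins, had levels from -2.19 to -1.11 in control and -2.73, -1.95, -2.28 and -2.02 in cold. It changed by -0.65 (SE 0.25, adjusted p = 0.151). HSPB1 (HSP27) changed by 0.19 (SE 0.14, adjusted p = 0.419), by -0.90 after median centring and by -0.32 in the deposited value table, and HSPB6 by -0.13 (SE 0.12). HSPB2, HSPB3, HSPB7 and HSPB9 were on the array and did not pass the filter, with no probe above background on more than 1 array.

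**Figure D2:**
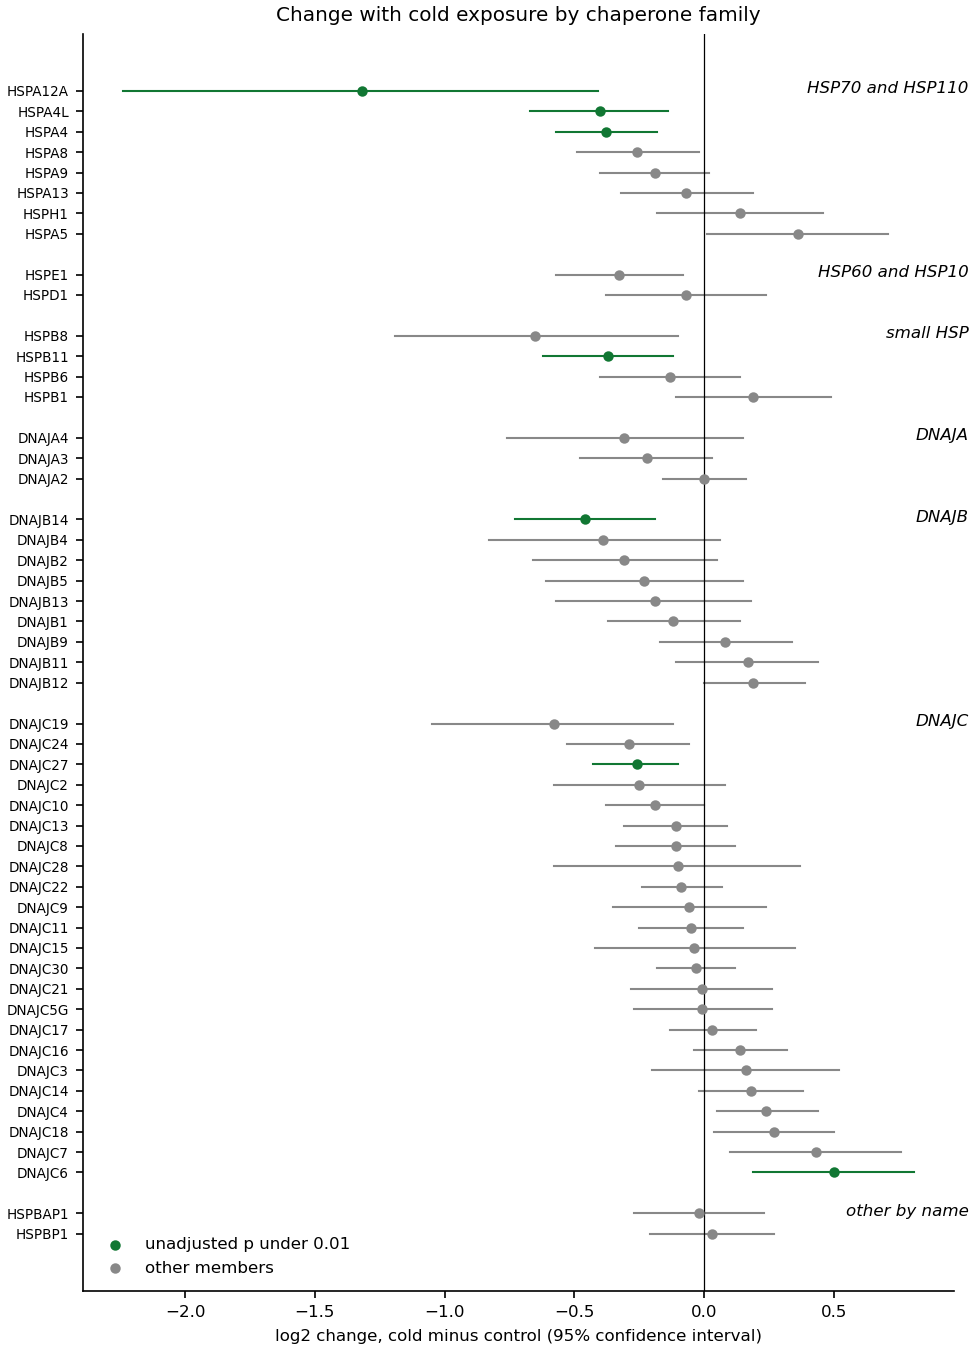
Change of each of the 51 genes, as the log2 ratio in cold less that in control with its 95% confidence interval, grouped by family and ordered by change; green marks an unadjusted limma p under 0.01. The 7 green genes are HSPA12A, HSPA4L, HSPA4, HSPB11, DNAJB14 and DNAJC27 below 0 and DNAJC6 above it, and most intervals of the DNAJC family include 0.

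J proteins were the larger part of the set, with 3 DNAJA, 9 DNAJB and 23 DNAJC genes. Those of type A resemble the bacterial DnaJ over their whole length. DNAJA2, a cytosolic partner of HSPA8, had the change nearest to 0 after loess (0.00, SE 0.07, 95% confidence interval -0.16 to 0.16), with levels from -0.02 to 0.13 in control and from -0.05 to 0.18 in cold, but changed by -0.70 after median centring and by -0.32 in the deposited value table. DNAJA3, the mitochondrial partner of HSPA9, changed by -0.22 (SE 0.12, adjusted p = 0.258) and DNAJA4 by -0.31 (SE 0.21, adjusted p = 0.374).

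DNAJB14 was the 1 DNAJB gene called. It encodes a J protein of the endoplasmic reticulum membrane whose J domain faces the cytosol. Control levels ran from -0.35 to 0.11 with a median of -0.23, and cold levels were -0.76, -0.57, -0.35 and -0.91. Before rounding, all 4 cold values lay below all 6 control values, although cold 3 and control 5 are both -0.35 at 2 decimals. The change was -0.46 (SE 0.12, 95% confidence interval -0.73 to -0.19, adjusted p = 0.0876), with all 4 probes lower and an exact permutation p of 0.00476, -0.52 at slide position 1 and -0.37 at position 2. The call was kept in 8 of the 10 fits without 1 array. Cy3 alone gave -0.27 (SE 0.20, adjusted p = 0.441) with overlap. Cy5 was above background on 43.8% of its spots on control arrays and 93.8% on cold arrays. DNAJB12, its nearest relative in the same membrane, had the opposite sign at 0.19 (SE 0.09, adjusted p = 0.211), measured by 3 probes with Cy3 above background on 43.3% of their spots. DNAJB1, the heat-inducible HSP40, changed by -0.12 (SE 0.12, adjusted p = 0.574), with cold levels of -0.33, -0.18, -0.04 and 0.20 around a control mean of 0.03. DNAJB4, DNAJB2, DNAJB5 and DNAJB13 ranged from -0.39 to -0.19 and none of them was called. The median of the 9 DNAJB genes was -0.19 and turned to 0.03 with Cy3 alone.

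DNAJC6 encodes auxilin, which brings HSPA8 to clathrin-coated vesicles to strip their coat and is best known from neurons. It was dim. Its best probe was above background on 3 of 6 control and 4 of 4 cold arrays, so that it passed the filter only with the group in which it was higher, and its values are a description. Control levels lay between -0.05 and 0.18 with a median of 0.02, and cold levels were 0.44, 0.18, 1.05 and 0.50. All 4 cold values lay above all 6 control values before rounding, and the cold SD of 0.37 was wider than the control SD of 0.08. The change was 0.50 (SE 0.14, 95% confidence interval 0.19 to 0.81, adjusted p = 0.0935) and 0.92 (SE 0.23, adjusted p = 0.0573) with Cy3 alone. All 16 probes of its 4 target sequences had a higher mean in cold, and the targets ranged from 0.47 to 0.55. The change was 1.30 with the processed scanner intensities, 1.22 in the deposited value table and 0.33 without cold 3. These sequences belong to transcripts of 1 gene and are not independent. Cy3 was above background on 51.2% of its spots, and Cy5 on 2.08% of the spots in control and 28.1% in cold. It did not remain in the set where Cy3 had to be above background on all 10 arrays, or Cy5 as well as Cy3. GAK, the auxilin relative of most other cells, changed by -0.15 (SE 0.15, adjusted p = 0.569).

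DNAJC7 passes substrates between HSP70 and HSP90. Its control levels lay between -0.15 and 0.03 with a median of -0.01, and the cold levels were 0.03, 0.25, 0.31 and 0.95. Cold 1 was level with the highest control ferret at 2 decimals and above it before rounding, and cold 4 stood apart from the rest. The change was 0.43 (SE 0.15, adjusted p = 0.127), with all 8 probes higher, and 0.46 (SE 0.19, adjusted p = 0.172) with Cy3 alone. After median centring, where the median of all genes was -0.43, it was -0.05. Without cold 4 it was 0.24. In the other direction, DNAJC27, a Rab-like GTPase with a J domain, had control levels between -0.13 and 0.08 and cold levels of -0.12, -0.24, -0.29 and -0.37. Cold 1 lay just inside the control range. The change was -0.26 (SE 0.08, adjusted p = 0.0966), and -0.32 (SE 0.15, adjusted p = 0.206) with Cy3 alone. The call was kept in 3 of the 10 fits without 1 array.

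DNAJC19, a J protein of the motor that draws proteins into mitochondria, changed by -0.58 (SE 0.21, adjusted p = 0.138) in the ratio. It changed by -1.01 with the processed scanner intensities, where it was called, by -0.15 in the deposited value table, by 0.00 (SE 0.14) in Cy3 alone and by -0.37 without cold 1. Its cold levels were -1.63, -0.60, -1.04 and -0.73, and control 5, at -0.95, lay among them. DNAJC24, which takes part in making diphthamide, the modified histidine of elongation factor EEF2, changed by -0.29 (SE 0.11, adjusted p = 0.141). DNAJC4 and DNAJC18 changed by 0.24 (SE 0.09, adjusted p = 0.141) and 0.27 (SE 0.10, adjusted p = 0.151). The remaining 16 DNAJC genes had an unadjusted limma p over 0.05. For the whole family 15 changes were negative and 8 positive, with a median of -0.04 that was 0.00 with the processed intensities.

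**Figure D3:**
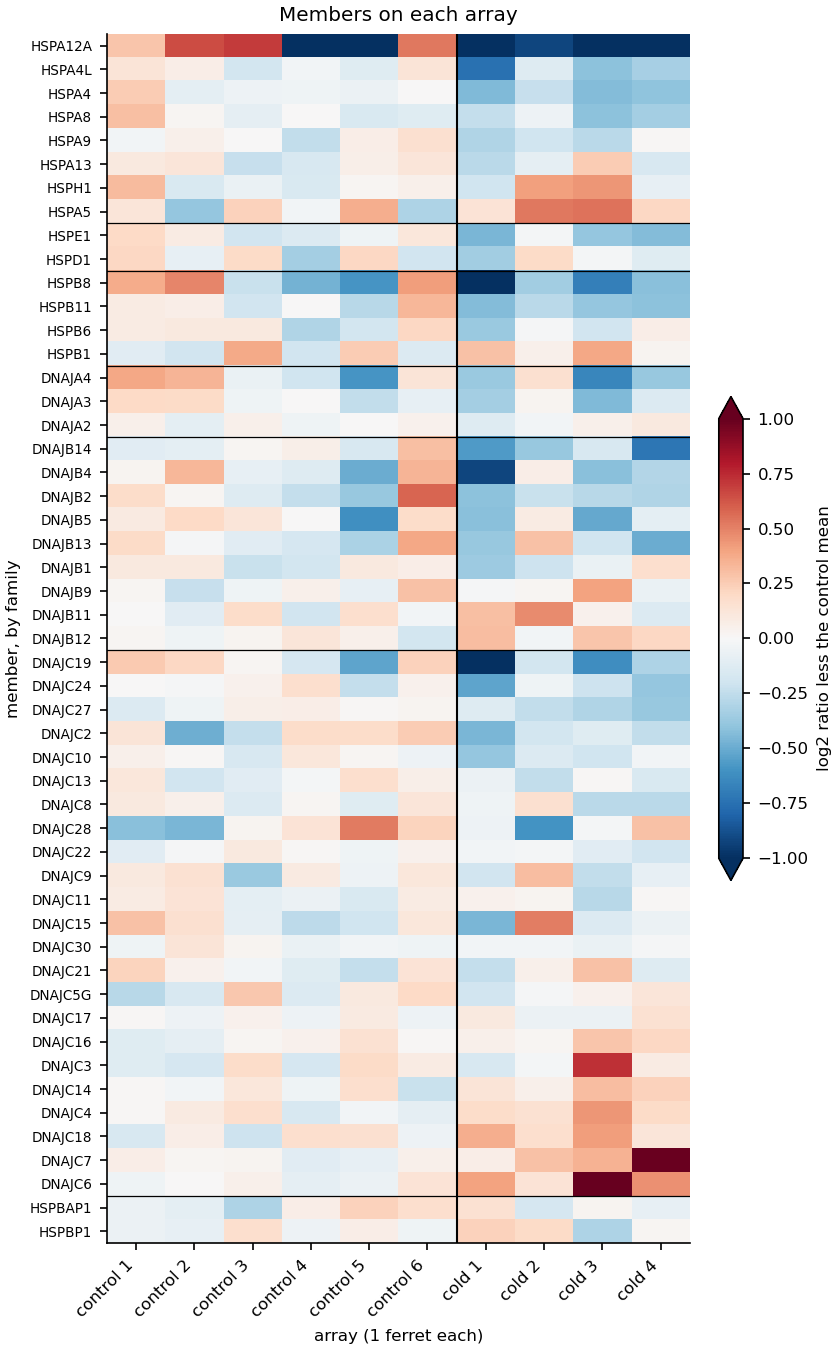
Level of the 51 genes on each of the 10 arrays less the gene's control mean, on a log2 colour scale that ends at -1 and 1, with families in blocks. The blue cells of the HSP70, small heat shock protein and DNAJB blocks are most frequent on cold 1 and least frequent on cold 2, and control 4 and control 5 are blue for some of the same genes.

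The 4 cold ferrets were not alike. On the cold 1 array 37 of the 51 genes lay below their control mean and 23 below all 6 control ferrets, against 28.0% of all genes on that array. On the cold 2 array these were 28 and 6, against 12.5% of all genes, and the median deviation from the control mean was -0.01, while it was -0.20 on cold 1, -0.12 on cold 3 and -0.09 on cold 4. Over all genes those medians lay between -0.03 and 0.01. Cold 1 also had the brightest reference channel, with a median Cy5 intensity of 152. Cold 3 had 98, cold 4 had 92 and cold 2 had 48, where the control arrays had 44 to 80. The part of these differences in the values was not tested. Without cold 2, 8 chaperone genes were called (15.7%, against 12.9% of all genes), and HSPA4, DNAJC6, HSPA4L and HSPE1 passed the adjusted threshold, as did 1263 of all genes. In no other fit without 1 array did a chaperone gene pass it. Within slide position 1 (4 control, 2 cold) 1 gene was called lower and 1 higher (3.92%, against 3.89% of all genes), and within position 2 (2 control, 2 cold) none (against 1.54%). At positions 1 and 2 the change was -0.51 and -0.22 for HSPA4L, -1.63 and -0.91 for HSPA12A, -0.47 and -0.16 for HSPB11, -0.17 and -0.38 for DNAJC27, 0.26 and 0.74 for DNAJC6, and 0.17 and 0.70 for DNAJC7. The sign was the same as in the pooled fit at both positions for 38 of the 51 genes (74.5%), against 67.3% of all genes.

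Of 13 genes listed as heat-inducible chaperones 9 were measured, among them HSPD1, HSPE1 and the constitutive HSPA8. HSPA1A, HSPA1B, HSPA6 and DNAJA1 were on the list but not measured. The 9 had 7 negative changes, 2 positive ones (HSPB1 and HSPH1) and a median of -0.26, which was the change of HSPA8. Only HSPA4 was called. Of the 10 mitochondrial members, all measured, 9 changes were negative and the median was -0.09. None was called, and HSPE1, DNAJC19 and DNAJC4 had an unadjusted limma p under 0.05. Of 13 members of the endoplasmic reticulum 11 were measured, with 8 positive and 3 negative changes and a median of 0.16, and only DNAJB14 was called, on the negative side. The heat-inducible and mitochondrial medians stayed below 0 under all 5 alternatives of background, scaling and input. They ran from -0.96 to -0.15 and from -0.73 to -0.05. Less the median of all genes under the same alternative, they ran from -0.55 to -0.11 and from -0.31 to -0.01. With Cy3 alone 4 of the 10 mitochondrial members lay above the median of all genes. The reticulum median was -0.41 after median centring, close to the shift of all genes, and -0.03 in the deposited value table. The mean level of the reticulum members ran from -0.08 to 0.10 in control and was 0.00, 0.06, 0.27 and 0.00 in cold, and that of the heat-inducible list ran from -0.65 to -0.28 in control and was -0.89, -0.48, -0.64 and -0.68 in cold, so that the groups overlapped in both lists.

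Within the reticulum, the co-chaperones of BiP were DNAJB9, DNAJB11, DNAJC3 and DNAJC10. DNAJB11 changed by 0.17 (SE 0.13), with 0.47 at slide position 1 and -0.22 at position 2, and by -0.74 after median centring. DNAJB9 changed by 0.08 (SE 0.12), and by -0.42 after median centring. DNAJC3, which also restrains the kinases of the integrated stress response, changed by 0.16 (SE 0.16), a value that rested on the level of 0.64 in the cold 3 ferret, since it was -0.03 without that array and -0.41 after median centring. With Cy3 alone it was 0.42 (SE 0.12, adjusted p = 0.0716). DNAJC10, a disulphide reductase, had the opposite sign at -0.19 (SE 0.09, adjusted p = 0.209). Among 19 other folding and stress genes of the reticulum 12 were measured, of which 9 changes were positive and 3 negative. The 1 called was MANF, a secreted factor made in reticulum stress. It changed by 0.45 (SE 0.12, adjusted p = 0.0832), with all cold ferrets above all control ferrets, and kept its call in 9 of the 10 fits without 1 array and in 9 of 14 other alternatives. It was not called with the processed intensities (0.42), with Cy3 alone (0.35), in the deposited value table (0.15) or within slide position 2 (0.22). After median centring, where the median of all genes was -0.43, MANF had -0.45 and no call. The median of this list was 0.15, and it was -0.69 after median centring and -0.21 in the deposited value table.

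**Figure D4:**
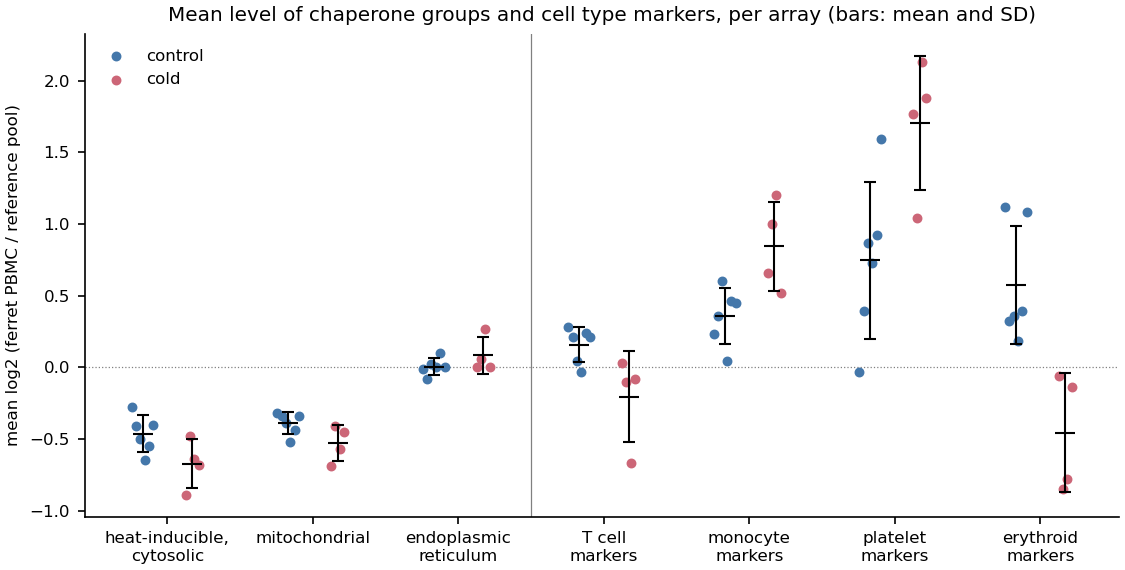
Mean level of each list on each array, as the log2 ratio to the reference pool; points are ferrets (6 control, 4 cold), bars the mean and SD over ferrets. The control and cold ferrets overlap in the 3 chaperone lists on the left, and of the 4 marker lists drawn on the right they do not overlap in the erythroid one.

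The HSP70 system hands substrates on to HSP90, whose family was measured here through HSP90AB1 alone, with a change of -0.20 (SE 0.18, adjusted p = 0.529), 0.05 within slide position 1 and -0.68 in the deposited value table. Without 1 array it lay between -0.35 (without cold 2) and -0.06 (without cold 3), and it was -0.13 without control 1 and -0.12 without cold 4. HSP90AA1 and HSP90B1 had no matching sequence. Of 18 co-chaperones of HSP90 15 were measured, and 13 changes were negative, with a median of -0.07, which was -0.47 in the deposited value table and -0.95 after median centring. The change farthest from 0 was that of CDC37L1 (-0.82, SE 0.87, adjusted p = 0.593), whose level was -5.03 on cold 4 and between -0.66 and 0.35 on the other cold arrays. TTC4 was the 1 called, at -0.26 (SE 0.08, adjusted p = 0.109), with all cold ferrets below all control ferrets, a call kept in 2 of the 10 fits without 1 array. FKBP5, an immunophilin induced by glucocorticoids, was 1 of the 2 with a positive change, at 0.50 (SE 0.20, adjusted p = 0.164). None of the 8 other nucleotide exchange factors measured was called, among them HYOU1, the HSP110-type protein of the endoplasmic reticulum (0.23, SE 0.12, adjusted p = 0.253). Nor was any of 6 subunits of the TRiC chaperonin, whose changes lay between -0.19 and -0.01 (5 of the 6 were negative without background subtraction) and whose median of -0.13 was -0.61 in the deposited value table and -1.15 after median centring. Of 5 prefoldin subunits, which bring substrates to TRiC, none was called, and 4 changes were positive. Their mean level ran from 0.14 to 0.27 in control and from 0.28 to 0.52 in cold, without overlap, with VBP1 at a change of 0.61 (SE 0.29, adjusted p = 0.226) and the other 4 between -0.13 and 0.12. Their median change of 0.11 turned to -0.06 with Cy3 alone and -0.35 after median centring, where the median of all genes was -0.43. None of 5 other J proteins was called. None of the 5 heat shock factors and their regulators was called either. Among the nucleotide exchange factors, BAG6, which keeps exposed membrane proteins soluble, had an unadjusted limma p under 0.05, with a change of 0.27 (SE 0.10). HSF1, the factor that drives the heat shock response, changed by -0.09 (SE 0.14, adjusted p = 0.734), and HSF2 by -0.12 (SE 0.17). All 5 changes were negative, but only 3 of them with Cy3 alone and 2 in the deposited value table, and that of HSF1 was 0.01 with Cy3 alone, -0.54 in the deposited value table and -1.08 after median centring.

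**Figure D5:**
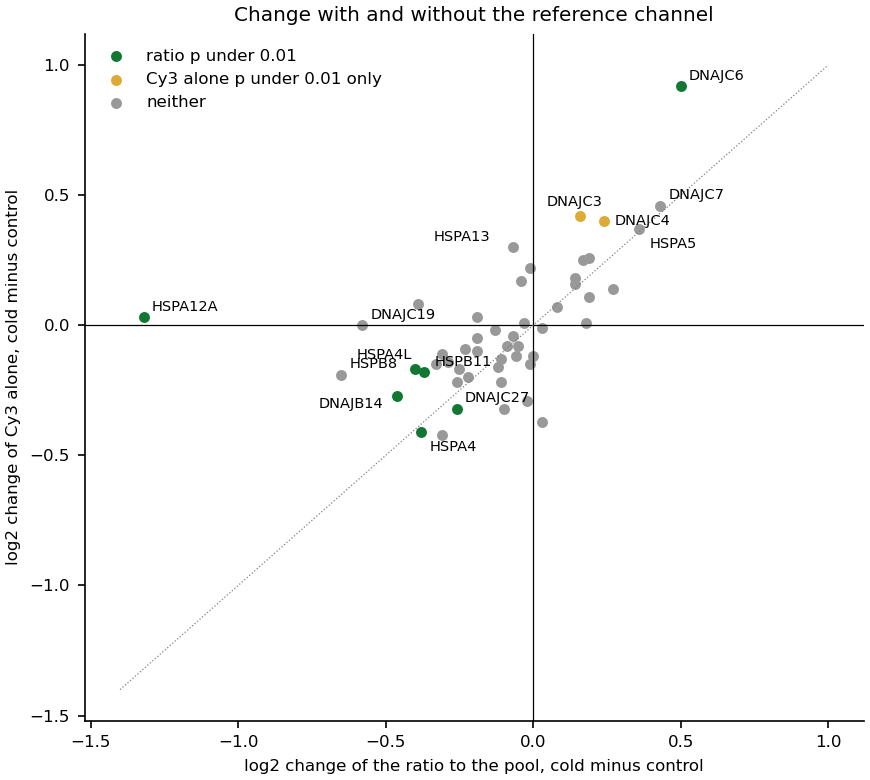
Change of each of the 51 genes in the ratio to the reference pool (x axis) against its change in Cy3 alone (y axis), both as log2 in cold less control; the dotted line marks equal changes. HSPA4, DNAJC7 and HSPA5 lie near the line, DNAJC6 above it, and HSPA12A, DNAJC19 and HSPB8 have large changes in the ratio and small ones in Cy3.

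After loess, 33 of the 51 genes (64.7%) had a mean control level below 0, against 45.6% of all genes, and the median control level was -0.08 against 0.03. The median SD between control ferrets was 0.16 for the chaperones and 0.16 for all genes, and between cold ferrets 0.21 and 0.20. The Cy5 channel, quantile normalised, had a median change of 0.06 over the chaperones and 0.03 over all genes. At the edge of the filter, the best probe of DNAJC22 was above background on 5 arrays, that of DNAJB12 on 6 and that of DNAJC6 on 7. Just outside it, those of DNAJC1, DNAJC12 and HSPA12B were so on 2 arrays each, DNAJC1 on 2 cold arrays and the other pair on 2 control arrays. DNAJB7, DNAJB8, DNAJC5B and HSPA2, the last a testis-enriched HSP70, were above background on 0 arrays.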

How the data were processed

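PBMC RNA of 6 control and 4 cold ferrets was measured on 10 arrays, each on its own slide. The authors deposited spot intensities from Agilent Feature Extraction 10.7.3.1 (median signal and background in both channels, not normalized, and software-processed intensities) and a table with 1 log2 value per array and target sequence, whose centring is not stated. Here, limma 3.58.1 in R 4.3.3 corrected the background of the median intensities (normexp, offset 50) and normalized log2 Cy3 over Cy5 within arrays by loess (span 0.3, 4 iterations). Control spots had weight 0 and outlier spots were left out. Spots were averaged per probe, then probes per gene. A probe was kept if at least 0.5 of its spots were well above background in Cy3 on at least 4 arrays, which gave 111051 probes and 26303 genes, 9276 with a symbol. Of 45328 target sequences 21104 were named, as 12918 genes, by accession through the RefSeq table of assembly ASM1176430v1.1. The files name no build, so no coordinates are given. The arrays' number limits the precision.

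Groups were compared with limma (lmFit, eBayes; Benjamini-Hochberg adjustment ran over the whole gene table), and single genes with exact two-sided permutation tests. Named were every member with an unadjusted p under 0.01, filled up in order of p to 10, members fixed by role, and called genes of other chaperone lists; genes beyond this rule were chosen after their values were seen. Members and lists were chosen with earlier results of these data known. The script was tested on simulated data. Alternatives were other background corrections, scalings, inputs, filters, probe summaries, the methods' t-test, slide position, replicate number, and each array left out. Genes of the other chaperone lists that the text does not name are counted, and their values are not reported here.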

Additional observations from a re-analysis of the deposited data

Results flagged for a closer look

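In 54 groups checked (27 named genes in control and in cold), 2 held an array far from the others, and chance gives about 1 such group in 20. The level of HSPA4 in the control 1 ferret was -0.02, where the next control ferret had -0.27 and the lowest -0.37. The level of HSPE1 in the cold 2 ferret was -0.61, where the other cold ferrets lay between -1.05 and -0.98.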

How the results depend on the processing

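The median change of the 51 genes lay between -0.11 and -0.06 without any 1 array, and moved beyond the spread of control ferrets only after median centring (-0.54, with all genes at -0.43). The counts called lower (6) and higher (1) moved more. They were 2 and 2 with the processed intensities, 2 and 1 after median centring, 0 and 3 with Cy3 alone, 2 and 1 with the deposited value table, 4 and 0 where Cy3 had to be above background on all 10 arrays, 3 and 0 with the methods' t-test (none after Benjamini-Hochberg adjustment), 1 and 1 within slide position 1, 0 and 0 within position 2, and 6 and 0 where Cy5 also had to be above background, an alternative chosen after seeing the data. Without 1 array they ranged from 2 to 8 and from 0 to 2. The share of all genes called moved too. With the methods' t-test 5.88% of the chaperones and 6.57% of all genes were called, with the replicate block 3.92 and 9.35%, with Cy3 alone 5.88 and 9.84%, above background on all 10 arrays 9.30 and 9.36%, and within position 2 none and 1.54%, so that the larger share of the chaperones in the reported values (13.7 against 8.64%) was not seen in these. Where Cy5 also had to be above background these shares were 12.8 and 8.65%. The share of the chaperones was also below that of all genes without control 4 (5.88 and 7.75%), control 6 (5.88 and 6.90%) or cold 4 (5.88 and 7.82%). The replicate numbers are not stated to pair the ferrets, and deviations of same-numbered ferrets correlated at -0.30, 0.54, 0.10 and -0.19. With the replicate block, 2 genes were called lower and 0 higher.

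HSPA4 kept its direction throughout, and lost its call in 6 of 24 alternatives. Over the alternatives that kept all arrays or split them by slide position, HSPA4 ranged from -1.30 to -0.33, DNAJB14 from -0.76 to -0.27, DNAJC6 from 0.26 to 1.30, DNAJC27 from -0.61 to -0.13, HSPA4L from -0.71 to -0.10, HSPB11 from -0.94 to -0.16 and HSPA12A from -1.63 to 0.03. Without a change of sign, median centring gave HSPA9 -0.65, HSPE1 -1.07, HSPD1 -1.09, DNAJA3 -1.12, DNAJB1 -0.93 and HSP90AB1 -1.20, and the deposited value table HSPE1 -0.60, HSPD1 -0.53, DNAJA3 -0.62 and DNAJB1 -0.49. Several genes changed sign. Median centring moved the median change of all genes to -0.43. There DNAJC7 had -0.05, HSPA5 -0.71, HSPH1 -0.64, HSPB1 -0.90, DNAJB9 -0.42, DNAJB11 -0.74, DNAJC3 -0.41 and MANF -0.45. DNAJC7 thus lay above the median of all genes, and DNAJB9, DNAJC3 and MANF lay close to it. In the deposited value table HSPA5 had -0.14, HSPH1 -0.20, HSPB1 -0.32, DNAJB9 -0.02, DNAJB11 -0.26 and DNAJC3 -0.03. With Cy3 alone HSPA12A had 0.03 and HSF1 0.01. Within slide position 1 HSPD1 had 0.02, DNAJB9 -0.02 and HSP90AB1 0.05, and within position 2 HSPB1 had -0.11, DNAJA2 0.05, DNAJB1 0.11 and DNAJB11 -0.22. DNAJA2 had 0.03 with the processed intensities and 0.01 with the replicate block. Without 1 array, DNAJA2 ranged from -0.04 to 0.04, HSPD1 from -0.16 to 0.02, DNAJB9 from -0.02 to 0.14 and DNAJC3 from -0.03 to 0.27. In the same fits HSPH1 (0.04 to 0.25), DNAJB11 (0.07 to 0.27), DNAJB1 (-0.21 to -0.03) and HSF1 (-0.18 to -0.02) moved without a change of sign. DNAJA2 had 0.01 without control 1, control 3 or cold 2, 0.00 without control 6 and 0.04 without cold 1. The cause of these differences was not tested.

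The 10 arrays, with 4 in the cold group, limit the precision. Dim reference spots limit the ratios of DNAJC6, DNAJB12, DNAJC17 and DNAJC22, where Cy5 was well above background on under 5% of the control spots. Among the other called genes these shares were 20.8% in control and 68.8% in cold for HSPA4L, and 31.2 and 78.1% for DNAJC27. They were 43.8 and 93.8% for DNAJB14 and 73.1 and 95.8% for HSPB11, but 100% in both groups for HSPA4 and HSPA12A. The part of this in their ratios was not tested.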
